A study of Homo sapiens with 18 samples.

Results

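The genes of the ATF4 stress response and of the cytosolic tRNA synthetases were followed across the 9 groups of an RNA-seq study of A375, a human melanoma cell line with an activating BRAF mutation. The 34 members were taken by symbol from the 4 deposited tables, each of 60595 genes, and every member had 1 row in every table. Of these, 15 were transcription factors and effectors of the stress response and 19 were subunits of cytosolic tRNA synthetases. By its title and design text, the study asks how gene expression depends on LSD1 and FOSL1 in melanoma cells that resist BRAF and MEK inhibitors. The groups held 2 libraries each, 18 in all, and nothing in the labels says whether the libraries of a group came from separate cultures, so p-values measure only the spread between these libraries.

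The drug table held P_DT, P cells given 250 nM of the BRAF inhibitor dabrafenib and 10 nM of the MEK inhibitor trametinib, P_DMSO, P cells given the solvent DMSO, and R_DT and R_DMSO, R cells under the same conditions. From the sample names and the study's title, P is taken to mean parental cells, and R cells that have become resistant to inhibitors of BRAF and MEK. The P hairpin table held P_shLSD1, P cells with a hairpin against LSD1, and P_shCtrl, their control. The R hairpin table held R_shLSD1 and R_shCtrl in the same way, and the last table held only R_shFosL1, R cells with a hairpin against FOSL1. LSD1, the product of KDM1A, is a histone lysine demethylase, and FOSL1 encodes the AP-1 subunit FRA1. The labels give no drug for the hairpin libraries, so whether those cells were in drug is not known here, and they do not say how many hairpins or clones were used. Both R_DMSO libraries carry sample numbers outside the run of all the others, and the labels do not say why. If they were made apart, that cannot be told from line or drug in a comparison that uses them.

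ATF4 is a basic leucine zipper transcription factor whose mRNA is translated when the initiation factor eIF2 is phosphorylated on its alpha subunit. This phosphorylation is made by kinases that sense uncharged tRNA, unfolded protein in the endoplasmic reticulum, double-stranded RNA or heme shortage, and the response is known as the integrated stress response. ATF4 pairs with C/EBP proteins and activates genes for amino acid synthesis, amino acid transport and tRNA charging, as well as CHOP, the product of DDIT3. Since ATF4 is regulated in large part at translation, its mRNA level is not a measure of its protein.

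The values were FPKM, fragment counts scaled for transcript length and library size. A gene was called when its limma p, adjusted over all genes of the fit, was below 0.05, and a log2 fold change below is on the log2(FPKM + 1) scale with its standard error after the ± sign. The 18 libraries had 13921 to 15314 genes at 1 FPKM or more. KDM1A had 9.54 and 6.73 FPKM in P_shLSD1, against 78.1 and 72.4 in P_shCtrl (log2 fold change -3.08 ± 0.20, limma adjusted p = 0.016), and 10.1 and 11.1 FPKM in R_shLSD1, against 73.3 and 76.5 in R_shCtrl (-2.71 ± 0.10, limma adjusted p = 9.4e-04), so the targeted gene was low in the libraries labelled with its hairpin. FOSL1 had 36.2 and 38.3 FPKM in R_shFosL1, and 109 and 104 FPKM in R_shCtrl of another table. Among 8 melanocytic marker genes, TYR was listed at 0 in all 18 libraries, while SOX10 was at 0 or 0.163 FPKM in the R libraries and between 89.1 and 332.9 FPKM in the P libraries. The summed level of the 8 markers was 17.9 to 58.3 FPKM in the R libraries and 106 to 452 FPKM in the P libraries. MITF, the lineage factor of melanocytes, was between 15.6 and 54.2 FPKM in the R libraries and between 4.82 and 29.3 FPKM in the P libraries. Of the labelled cell type's markers, TYR was thus not detected in either line and SOX10 was at or near 0 in the R line.

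The promoters of the members were searched on both strands for TGATGNAA, the C/EBP-ATF response element at which ATF4 pairs with a C/EBP protein. RefSeq promoter windows of 300 bases, 250 before and 50 after the start on GRCh38.p14, were matched for 30 of the 34 members. A gene was counted when any of its windows held the element. The element stood in 11 of these 30 genes (36.7%), against 1217 of 27305 genes (4.46%) with a window in the same table. It stood in 7 of 16 synthetases (43.8%) and 4 of 14 stress genes (28.6%). Counted by window, it stood in 11 of 47 windows of members (23.4%), against 1270 of all 35116 windows (3.62%). These were 7 of 21 windows of synthetases (33.3%) and 4 of 26 of stress genes (15.4%). The narrower form TGATGCAA, every match of which is also a match of TGATGNAA, stood in 8 of 30 members (26.7%) and in 1.08% of all genes. A match is only a match of letters. The 6 windows below belong to the element-holding members that were called in the most comparisons, ties being broken by the smallest adjusted p, and show where the element lies. The element is in capitals, it reads TTGCATCA where it lies on the other strand, and distances are from its first base to the start. CEBPG is at chr19:33373863-33374162 on the plus strand, with the element 42 bases before the start. IARS1 is at chr9:92293648-92293947 on the minus strand, with the element 13 bases before the start. ASNS is at chr7:97872359-97872658 on the minus strand, 68 bases before the start. AARS1 is at chr16:70289457-70289756 on the minus strand, 187 bases before the start. CARS1 is at chr11:3057374-3057673 on the minus strand, 2 bases before the start. TARS1 is at chr5:33440715-33441014 on the plus strand, where the element begins at base 3, counting the start as the first base.
CEBPG: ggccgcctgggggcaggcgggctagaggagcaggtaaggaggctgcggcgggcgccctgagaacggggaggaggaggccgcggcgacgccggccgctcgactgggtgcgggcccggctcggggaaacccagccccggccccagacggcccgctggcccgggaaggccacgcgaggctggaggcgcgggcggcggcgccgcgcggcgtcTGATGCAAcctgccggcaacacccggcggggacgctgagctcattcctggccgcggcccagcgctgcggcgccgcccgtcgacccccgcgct
IARS1: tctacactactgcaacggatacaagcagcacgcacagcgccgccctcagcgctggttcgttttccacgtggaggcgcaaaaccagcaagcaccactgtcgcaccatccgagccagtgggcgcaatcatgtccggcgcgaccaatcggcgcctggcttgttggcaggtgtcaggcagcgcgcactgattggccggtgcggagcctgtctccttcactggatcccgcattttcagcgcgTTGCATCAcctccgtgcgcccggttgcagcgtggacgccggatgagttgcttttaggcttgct
ASNS: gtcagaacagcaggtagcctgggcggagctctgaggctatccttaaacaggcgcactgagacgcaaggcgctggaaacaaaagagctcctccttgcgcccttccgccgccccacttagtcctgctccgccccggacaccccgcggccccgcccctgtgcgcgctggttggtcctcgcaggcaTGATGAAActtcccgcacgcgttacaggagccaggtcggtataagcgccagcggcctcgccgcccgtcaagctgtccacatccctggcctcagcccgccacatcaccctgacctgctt
AARS1: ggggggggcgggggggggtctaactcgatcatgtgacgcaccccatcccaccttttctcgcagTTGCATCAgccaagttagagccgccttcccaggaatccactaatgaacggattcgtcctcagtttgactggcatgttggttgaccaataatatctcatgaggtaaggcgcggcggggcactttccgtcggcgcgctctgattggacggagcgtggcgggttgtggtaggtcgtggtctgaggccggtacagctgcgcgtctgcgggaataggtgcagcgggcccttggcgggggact
CARS1: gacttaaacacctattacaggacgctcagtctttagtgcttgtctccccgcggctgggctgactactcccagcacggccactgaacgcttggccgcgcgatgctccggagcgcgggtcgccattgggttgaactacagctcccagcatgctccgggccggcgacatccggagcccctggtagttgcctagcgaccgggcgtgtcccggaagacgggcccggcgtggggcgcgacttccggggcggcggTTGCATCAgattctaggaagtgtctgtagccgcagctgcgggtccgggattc
TARS1: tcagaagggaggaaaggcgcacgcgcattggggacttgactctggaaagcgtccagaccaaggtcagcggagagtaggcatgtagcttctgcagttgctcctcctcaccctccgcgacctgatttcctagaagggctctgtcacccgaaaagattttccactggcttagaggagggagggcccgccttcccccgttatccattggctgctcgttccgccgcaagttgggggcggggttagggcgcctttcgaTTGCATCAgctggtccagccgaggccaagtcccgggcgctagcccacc

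The other holders were NARS1, GARS1, MARS1, JDP2 and ATF3. Of these, JDP2 was called in 2 comparisons and ATF3 in 1. TRIB3, DDIT3 and SARS1, each called in 6, had no match in any window. Whether the element goes with being called was not tested. In all 6 windows printed the element was within 187 bases of the start, and in 4 of them, those of CEBPG, IARS1, CARS1 and TARS1, within 42 bases. The windows reach only 250 bases before and 50 after the start, so closeness to it was in part set by the search. CEBPG, ASNS, CARS1 and TARS1 each also had a window with no match. AARS1, CARS1, IARS1 and TARS1 carry the element as TTGCATCA, CEBPG as TGATGCAA and ASNS as TGATGAAA.

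ATF4 was the most abundant of the stress genes in each of the 9 groups. It had 218 and 255 FPKM in P_DT and 235 and 335 FPKM in P_DMSO. The level was 386 and 390.5 FPKM in R_DT and 241 and 205 FPKM in R_DMSO. It was 256 and 316 FPKM in P_shLSD1 and 398 and 329 FPKM in P_shCtrl. The R hairpin groups had 256 and 246 FPKM in R_shLSD1 and 441 and 414 FPKM in R_shCtrl, and R_shFosL1 had 275 and 289.9 FPKM. Within the drug table the R_DT libraries were above the other 6, and within the R hairpin table both R_shLSD1 libraries were below both R_shCtrl libraries. The P groups overlapped in the drug table, and ATF4 levels set across tables are not comparable, since each table was normalized on its own.

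The synthetases were high throughout: their median group mean lay between 67.8 FPKM, in P_shLSD1, and 160 FPKM, in P_DMSO, groups whose levels come from different tables and were not compared. FARSB was the exception. It encodes the beta subunit of phenylalanyl-tRNA synthetase and had 7.56 and 6.90 FPKM in R_DT and 3.71 and 3.84 FPKM in P_DT, whereas FARSA, the alpha subunit of the same enzyme, had 153 and 162 FPKM in R_DT and 112 and 134 FPKM in P_DT. NUPR1, a small stress-induced chromatin protein, was the lowest of the stress genes in R_DT and was listed at 0 in R_DMSO, R_shLSD1, R_shCtrl and R_shFosL1.

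**Figure D1:**
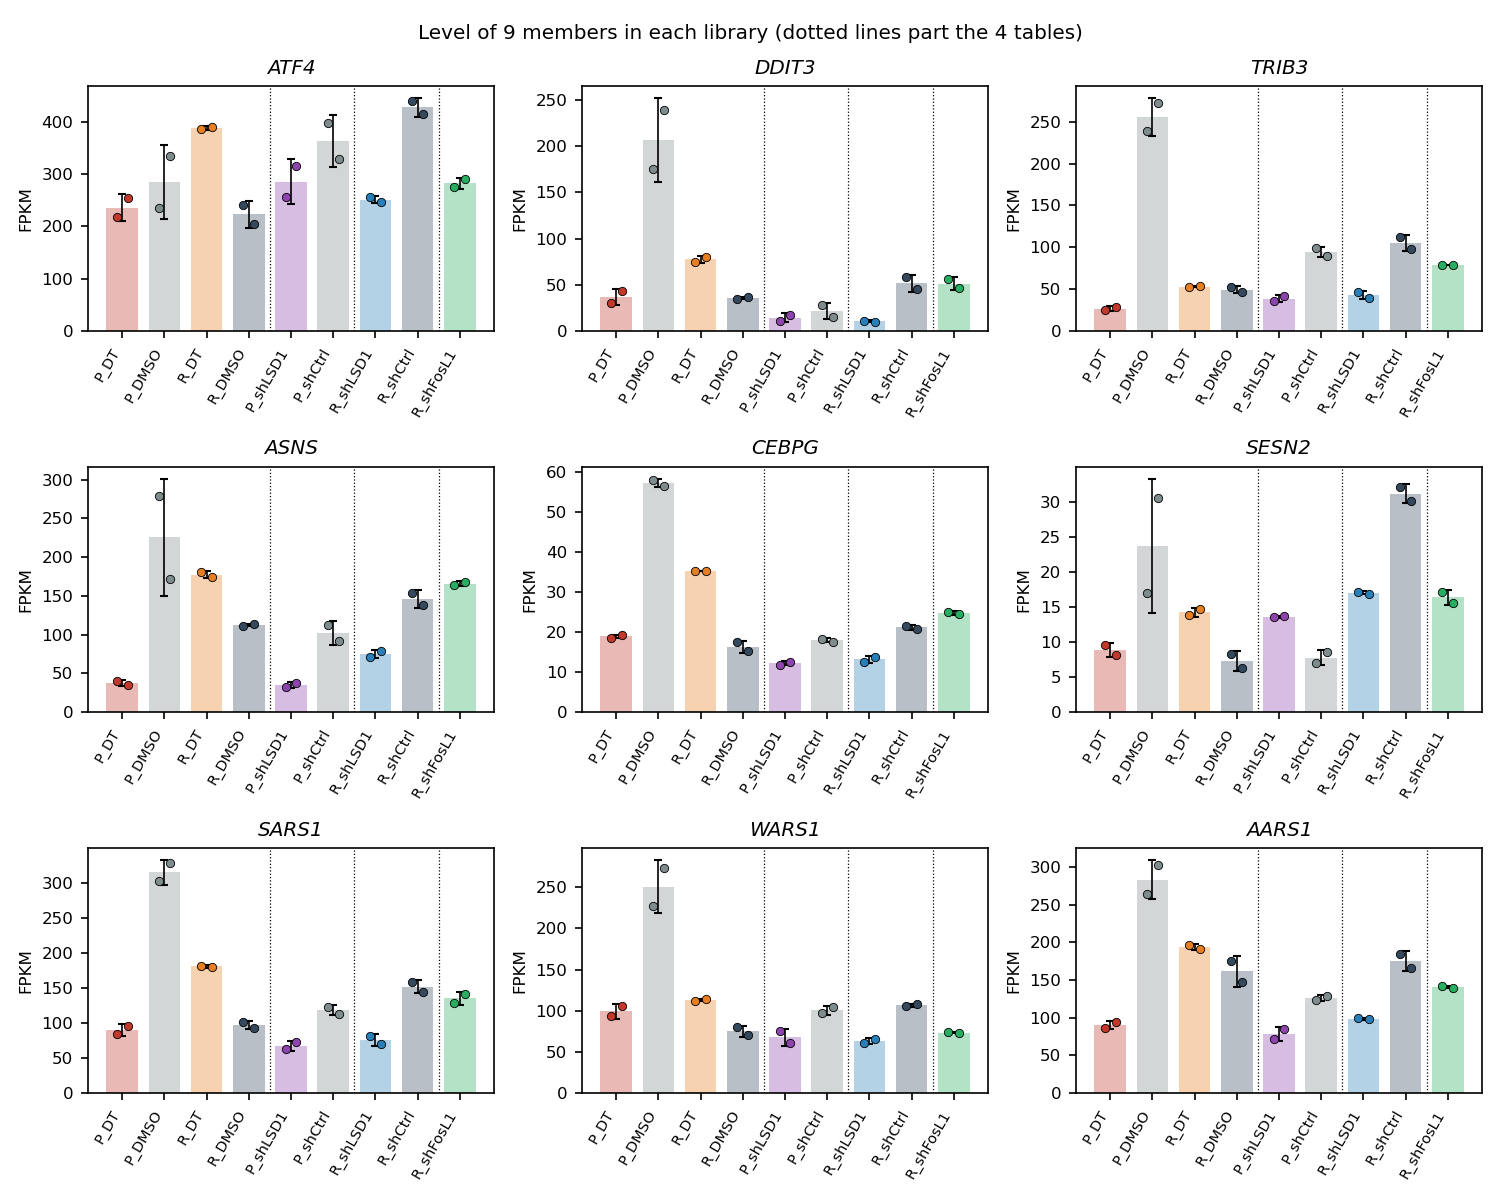
FPKM of 9 members in the 9 groups. Points are libraries, bars are the mean of 2 libraries, error bars the SD, and dotted lines separate the 4 tables, each normalized on its own. DDIT3, TRIB3, CEBPG, SARS1, WARS1 and AARS1 were highest in P_DMSO among the groups of the drug table, while ATF4 was highest there in R_DT.

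In P cells given dabrafenib plus trametinib, most of the charging enzymes and several well known ATF4 targets were lower, and ATF4 mRNA was not called. Of 15 stress genes, 6 were lower and 1 was higher in P_DT than in P_DMSO, and 8 were not called. Of 19 synthetases, 14 were lower, none was higher and 5 were not called. Among all 17190 genes tested 22.5% were called, 9.67% lower and 12.8% higher. The median log2 fold change was -0.79 over the stress genes and -0.78 over the synthetases, beside 0.11 over all genes tested. The stress median rested on single libraries, being -1.53 without P_DMSO replicate 1, -0.03 without P_DMSO replicate 2 and -0.51 without P_DT replicate 1. Under quantile normalization, which moved the all-gene median to -0.00, 7 stress genes and 14 synthetases were lower and 1 stress gene was higher.

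The largest fall was in TRIB3, a pseudokinase that restrains ATF4 activity and AKT (chr20:362835-397559, plus strand, hg38). It had 25.2 and 28.8 FPKM in P_DT, against 239 and 272 in P_DMSO (log2 fold change -3.20 ± 0.14, limma adjusted p = 1.1e-04). DDIT3, which encodes CHOP, the factor that links lasting stress to apoptosis, had 30.7 and 42.9 FPKM in P_DT, against 175 and 239 in P_DMSO (-2.46 ± 0.21, limma adjusted p = 7.4e-04). ASNS, asparagine synthetase, had 40.7 and 35.4 FPKM in P_DT, against 279 and 172 in P_DMSO (-2.50 ± 0.22, limma adjusted p = 8.7e-04). In all 3 genes both P_DT libraries lay far below both P_DMSO libraries, and the gap was wider than the spread within either group. CEBPG, a C/EBP partner of ATF4, had 18.6 and 19.3 FPKM in P_DT, against 58.1 and 56.6 in P_DMSO (-1.55 ± 0.13, limma adjusted p = 6.1e-04), with its P_DMSO libraries close together.

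SESN2 and PPP1R15A rested on wider spreads. SESN2, a leucine sensor that restrains mTORC1, had 9.51 and 8.11 FPKM in P_DT, against 16.96 and 30.5 in P_DMSO (-1.28 ± 0.28, limma adjusted p = 0.021). PPP1R15A, which encodes GADD34, the phosphatase subunit that reverses eIF2 phosphorylation, had 25.3 and 27.3 FPKM in P_DT, against 47.5 and 129 in P_DMSO (-1.54 ± 0.43, limma adjusted p = 0.043). In both, the second P_DMSO library was much higher than the first. ATF3, a stress-induced factor of the same family, moved the other way, with 45.6 and 40.3 FPKM in P_DT, against 11.8 and 20.4 in P_DMSO (1.41 ± 0.24, limma adjusted p = 0.0089). ATF4 itself was not called (-0.25 ± 0.20, limma adjusted p = 0.4), and its 95% interval ran from -0.72 to 0.21. The other 7 stress genes, ATF5, DDIT4, CEBPB, NUPR1, STC2, VLDLR and JDP2, were not called, with log2 fold changes between -1.49 for CEBPB and 0.80 for JDP2.

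Among the synthetases, SARS1, which charges tRNA with serine, had 84.3 and 96.4 FPKM in P_DT, against 303 and 328 in P_DMSO (log2 fold change -1.79 ± 0.13, limma adjusted p = 3.4e-04). AARS1, the alanine enzyme, had 86.2 and 93.8 FPKM in P_DT, against 265 and 302 in P_DMSO (-1.64 ± 0.14, limma adjusted p = 7.3e-04). IARS1, the isoleucine enzyme, had 75.7 and 71.8 FPKM in P_DT, against 214 and 183 in P_DMSO (-1.41 ± 0.13, limma adjusted p = 8.7e-04). In these 3 genes the P_DT libraries were far below the P_DMSO libraries and close to each other. YARS1, the tyrosine enzyme, had 111 and 104 FPKM in P_DT, against 269 and 230.2 in P_DMSO (-1.20 ± 0.13, limma adjusted p = 0.0016), and WARS1, the tryptophan enzyme, had 93.2 and 106 FPKM in P_DT, against 228 and 274 in P_DMSO (-1.32 ± 0.15, limma adjusted p = 0.0018).

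LARS1, the leucine enzyme, had 66.01 and 75.4 FPKM in P_DT, against 165 and 128 in P_DMSO (-1.03 ± 0.15, limma adjusted p = 0.0056). GARS1, the glycine enzyme of both the cytosol and mitochondria, had 72.1 and 79.9 FPKM in P_DT, against 310.5 and 176 in P_DMSO (-1.61 ± 0.25, limma adjusted p = 0.0063), and KARS1, the lysine enzyme, had 89.7 and 95.6 FPKM in P_DT, against 168 and 152 in P_DMSO (-0.78 ± 0.12, limma adjusted p = 0.0069). In each of these 8 synthetases both P_DT libraries were below both P_DMSO libraries. The further 6 that fell, CARS1, EPRS1, MARS1, NARS1, TARS1 and FARSB, had log2 fold changes between -0.97 for NARS1 and -0.63 for TARS1. HARS1, QARS1, RARS1, VARS1 and FARSA were not called, with values between -0.04 and 0.42. They charge tRNA with histidine, glutamine, arginine and valine, or are a subunit of the phenylalanine enzyme.

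Of the 21 calls, 9 held whichever of the 4 libraries was left out: TRIB3, DDIT3, ASNS, CEBPG, SARS1, AARS1, IARS1, WARS1 and YARS1. Without P_DT replicate 1 the other 12 had limma adjusted p between 0.052 and 0.17, with ATF3 at 0.068, SESN2 at 0.084, PPP1R15A at 0.17, GARS1 at 0.053, LARS1 at 0.052 and KARS1 at 0.063. Without P_DT replicate 2, 8 were lost, with ATF3 at 0.052, SESN2 at 0.12 and PPP1R15A at 0.15, and without P_DMSO replicate 1 only FARSB was (0.11). The P_DMSO libraries differed more from each other than those of the other drug groups, with an SD of the gene-wise log2 difference of 0.71 against 0.42 to 0.43. Left out in turn, the P_DT libraries gave 9 and 13 called members, and the P_DMSO libraries gave 25 and 27. With P_DMSO replicate 2 left out, 6 stress genes and 5 synthetases had fold changes above 0, in place of 4 and 4. The all-gene median was then 0.17. With P_DMSO replicate 1 left out they were 4 and 2, beside an all-gene median of 0.04. The summed melanocytic markers came to 430 and 452 FPKM for P_DT, against 157 and 201 for P_DMSO. The sum of 6 fibroblast markers was 11.9 and 14.7 FPKM in P_DT and 2.61 and 3.86 FPKM in P_DMSO, and mitochondrially encoded transcripts were 9.62 and 10.5% of summed FPKM in P_DT, against 7.27 and 7.86% in P_DMSO. The part of these shifts in the result was not tested.

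Other genes of the pathway were taken from lists chosen for their function. Of 12 genes of amino acid synthesis and folate-linked carbon metabolism, 7 were lower and 1 was higher in P_DT. MTHFD2, a mitochondrial folate enzyme, had 63.6 and 60.2 FPKM in P_DT, against 289 and 222 in P_DMSO (-2.02 ± 0.15, limma adjusted p = 4.6e-04), and PHGDH, the first enzyme of serine synthesis, had a log2 fold change of -1.53 ± 0.17, limma adjusted p = 0.002. Of 9 amino acid transporters tested, 6 were lower and none higher, among them SLC38A1 (-1.66 ± 0.18, limma adjusted p = 0.0017) and SLC7A11, the cystine importer (-1.40 ± 0.18, limma adjusted p = 0.0035). Of 14 other ATF4 and CHOP targets tested, 7 were lower and none higher. GDF15, a secreted stress hormone, had 0.610 and 1.14 FPKM in P_DT, against 133 and 306 in P_DMSO (-6.77 ± 0.37, limma adjusted p = 1.8e-04), and GADD45A fell as well (-2.65 ± 0.18, limma adjusted p = 3.4e-04). Each of these named calls held without any 1 library.

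The list of genes above ATF4 gave few calls. Of 17 kinases and factors upstream of ATF4, 2 were lower and 1 higher: EIF2S2, the beta subunit of eIF2 (-0.60 ± 0.14, limma adjusted p = 0.023), EIF2A (-0.70 ± 0.18, limma adjusted p = 0.036) and EIF2AK3, the kinase PERK (0.76 ± 0.22, limma adjusted p = 0.046). These 3 calls were lost without 1 of the P_DT libraries, with limma adjusted p of 0.15, 0.16 and 0.18. Of 6 scaffold and further synthetase genes, EEF1E1 (-1.14 ± 0.16, limma adjusted p = 0.0047) and PPA1 (-0.97 ± 0.20, limma adjusted p = 0.019) were lower and AIMP2 was higher (0.61 ± 0.13, limma adjusted p = 0.021). Without 1 of the P_DT libraries PPA1 was at limma adjusted p = 0.12 and AIMP2 at 0.13.

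In R cells given the same drugs, 5 members were called, all higher. Of 15 stress genes, 3 were higher and none lower in R_DT than in R_DMSO, and 12 were not called. Of 19 synthetases, 2 were higher, none lower and 17 were not called. Among all 17190 genes 6.48% were called, 3.65% higher and 2.83% lower. The median log2 fold change was 0.80 over the stress genes and 0.05 over the synthetases, beside -0.03 over all genes.

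CEBPG had 35.4 and 35.3 FPKM in R_DT, against 17.5 and 15.2 in R_DMSO (log2 fold change 1.07 ± 0.13, limma adjusted p = 0.0084). DDIT3 had 74.96 and 79.9 FPKM in R_DT, against 35.03 and 36.4 in R_DMSO (1.09 ± 0.21, limma adjusted p = 0.032), and STC2, which encodes the secreted glycoprotein stanniocalcin 2, had 33.9 and 38.9 FPKM in R_DT, against 14.9 and 14.3 in R_DMSO (1.26 ± 0.22, limma adjusted p = 0.024). In these 3 genes both R_DT libraries lay above both R_DMSO libraries by more than the spread within the groups. SARS1 had 182 and 179 FPKM in R_DT, against 102 and 93.2 in R_DMSO (0.89 ± 0.13, limma adjusted p = 0.013) and IARS1 had 195 and 188 FPKM in R_DT, against 124 and 132 in R_DMSO (0.58 ± 0.13, limma adjusted p = 0.047). ATF4 had 386 and 390.5 FPKM in R_DT, against 241 and 205 in R_DMSO, and missed the threshold (0.80 ± 0.20, limma adjusted p = 0.061, 95% interval 0.33 to 1.27). TRIB3, which fell most in P_DT, had 52.4 and 53.6 FPKM in R_DT, against 52.7 and 46.6 in R_DMSO, with a log2 fold change of 0.09 ± 0.14, limma adjusted p = 0.73 and overlapping groups.

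None of these 5 calls held when a library was left out. Without R_DMSO replicate 1, CEBPG was at limma adjusted p = 0.058, SARS1 at 0.083, STC2 at 0.13, DDIT3 at 0.16 and IARS1 at 0.21. Without R_DMSO replicate 2 the 5 lay between 0.086 and 0.19, without R_DT replicate 1 between 0.098 and 0.25, and without R_DT replicate 2 between 0.089 and 0.22. Far fewer of all genes were called in these fits as well. With only the 4 R libraries fitted, 14 members were called, beside 2506 of all 15063 genes tested. The log2 fold changes of the 10 stress genes and 17 synthetases that were not called in R_DT and are not named here lay between -0.42 for FARSB and 1.26 for JDP2. The summed markers were also higher in R_DT, with 56.7 and 58.9 FPKM, against 29 and 25.7 FPKM in R_DMSO, for 6 fibroblast genes, 7.13 and 7.82 FPKM, against 0.298 and 0.62 FPKM in R_DMSO, for 4 endothelial genes, and 35.9 and 58.3 FPKM, against 27 and 24.9 FPKM in R_DMSO, for the 8 melanocytic genes, and their part in the result was not tested.

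Beyond the members, 4 of 9 transporters tested were higher and none lower in R_DT, among them SLC7A5, the leucine importer (1.55 ± 0.19, limma adjusted p = 0.0097), and SLC1A4 (1.27 ± 0.15, limma adjusted p = 0.0078). Of 14 other targets 4 were higher: TXNIP, an inhibitor of thioredoxin and glucose uptake, had 552 and 534 FPKM in R_DT, against 29.7 and 31.6 in R_DMSO (4.10 ± 0.12, limma adjusted p = 5.5e-05), and NIBAN1 (1.19 ± 0.13, limma adjusted p = 0.0059), GDF15 (1.95 ± 0.37, limma adjusted p = 0.032) and CCPG1 (1.11 ± 0.24, limma adjusted p = 0.042) followed. Of 6 scaffold and further synthetase genes only AIMP2 was called, and it was lower (-0.70 ± 0.13, limma adjusted p = 0.032). ALDH1L2 was the single call among 12 genes of amino acid synthesis (1.70 ± 0.18, limma adjusted p = 0.0064). The TXNIP call held without any 1 library, and the others were lost without 1 of the R libraries: ALDH1L2 at limma adjusted p = 0.082, SLC1A4 and NIBAN1 at 0.084, SLC7A5 at 0.1, GDF15 at 0.19, AIMP2 at 0.21 and CCPG1 at 0.23. None of 17 upstream genes and none of 17 mitochondrial synthetases was called.

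**Figure D2:**
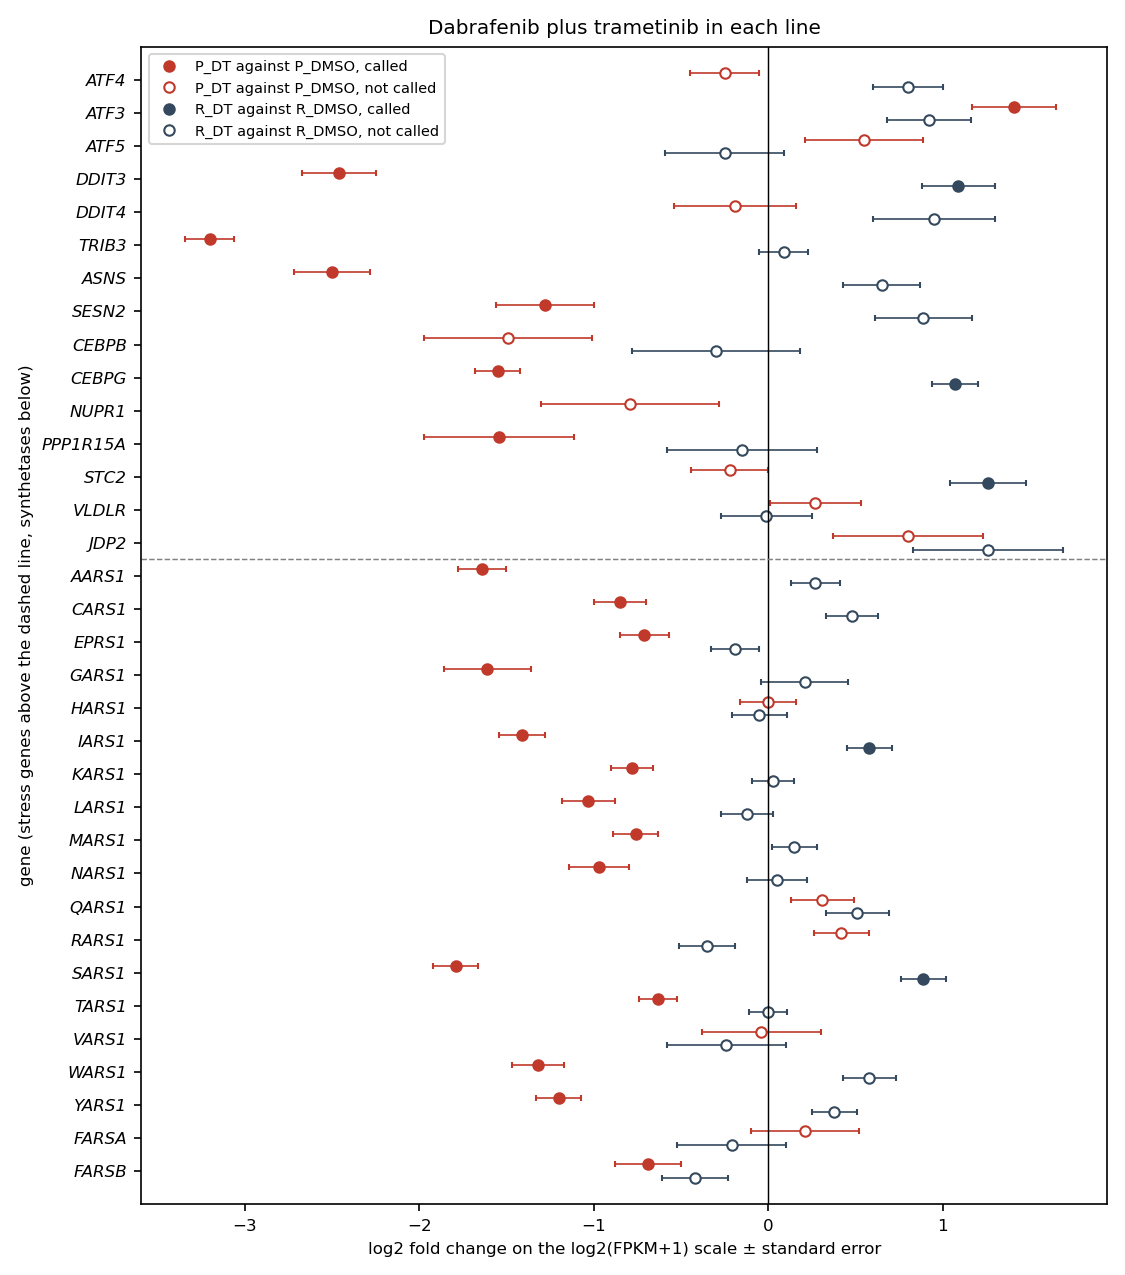
Log2 fold change of the 34 members under dabrafenib plus trametinib, P_DT against P_DMSO in red and R_DT against R_DMSO in dark blue, with standard errors. Filled points are called at a limma adjusted p below 0.05, and NUPR1, listed at 0 in R_DMSO, has no point for R cells. In P cells 20 members were called lower, beside 9.67% of all genes tested. In R cells no member was, beside 2.83% of all genes tested.

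The response to the drugs differed between the lines in 18 members, in each with the R response above the P response. The test was the difference of the log2 fold changes, R minus P, in the fit of all 8 drug libraries. It rests on the R_DMSO libraries, whose sample numbers stand apart, as said above. Of 15 stress genes 6 differed and of 19 synthetases 12 did, and none differed in the other direction. Among all genes 13.9% were called, 6.64% with R above P and 7.24% with R below P. The median difference was 1.18 over the stress genes and 0.92 over the synthetases, beside -0.16 over all genes, and quantile normalization moved the last to -0.02 and left 7 stress genes and 8 synthetases called.

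DDIT3 had the largest difference, 3.56 ± 0.30, limma adjusted p = 0.0014, its fold change being 1.09 ± 0.21 in R cells and -2.46 ± 0.21 in P cells. TRIB3 differed by 3.29 ± 0.20, limma adjusted p = 6.8e-04, ASNS by 3.15 ± 0.32, limma adjusted p = 0.0026 and CEBPG by 2.62 ± 0.18, limma adjusted p = 0.0011. SESN2 differed by 2.18 ± 0.40, limma adjusted p = 0.018 and STC2 by 1.47 ± 0.31, limma adjusted p = 0.027. Of these, STC2 came from a rise in R cells (1.26 ± 0.22) beside -0.22 ± 0.22 in P cells, and TRIB3 from a fall in P cells beside 0.09 ± 0.14 in R cells. ATF4 differed by 1.05 ± 0.28, limma adjusted p = 0.051 and missed the threshold.

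Among the synthetases SARS1 differed most, by 2.68 ± 0.18, limma adjusted p = 0.001, with AARS1 at 1.91 ± 0.20, limma adjusted p = 0.0028 and IARS1 at 1.99 ± 0.18, limma adjusted p = 0.002. WARS1 differed by 1.90 ± 0.21, limma adjusted p = 0.0032 and YARS1 by 1.58 ± 0.18, limma adjusted p = 0.0037. CARS1, the cysteine enzyme, differed by 1.33 ± 0.21, limma adjusted p = 0.012, GARS1 by 1.82 ± 0.35, limma adjusted p = 0.021 and MARS1, the methionine enzyme, by 0.92 ± 0.18, limma adjusted p = 0.022. KARS1, LARS1, NARS1 and TARS1 were called with differences between 0.63 and 1.02. The 7 synthetases not called were EPRS1, HARS1, QARS1, RARS1, VARS1, FARSA and FARSB.

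The differences of DDIT3, TRIB3, ASNS, CEBPG, SARS1, AARS1, IARS1, WARS1 and YARS1 held whichever of the 8 libraries was left out. SESN2, GARS1, KARS1, LARS1, MARS1, NARS1 and TARS1 were lost without any 1 of the P_DT, R_DMSO or R_DT libraries, with limma adjusted p between 0.052 and 0.16. STC2 was lost without P_DT replicate 1 (0.089) and without either R_DMSO or either R_DT library (0.085 to 0.11), and CARS1 without P_DT replicate 1 (0.059), R_DMSO replicate 2 (0.051) or R_DT replicate 2 (0.061). The count of members called was 9 to 11 without any 1 of those 6 libraries and 25 or 24 without a P_DMSO library. With P_DMSO replicate 2 left out, 4 stress genes and 5 synthetases had the R response below the P response, beside an all-gene median of -0.22. With P_DMSO replicate 1 left out they were 3 and 1, beside an all-gene median of -0.09. The stress median was 1.85 without P_DMSO replicate 1 and 0.69 without P_DMSO replicate 2.

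The lists of other pathway genes gave calls among the genes below ATF4. Of 14 other targets tested 12 differed, all with R above P, led in size by GDF15 (8.72 ± 0.53, limma adjusted p = 7.7e-04) and TXNIP (3.96 ± 0.17, limma adjusted p = 3.0e-04). Of 9 transporters 8 differed, among them SLC7A5 (2.09 ± 0.27, limma adjusted p = 0.0063) and SLC7A11 (2.01 ± 0.26, limma adjusted p = 0.0061), and of 12 synthesis genes 6 did, among them ALDH1L2 (3.43 ± 0.26, limma adjusted p = 0.0012) and MTHFD2 (2.54 ± 0.22, limma adjusted p = 0.0016). These named calls held without any 1 library. Of 6 scaffold and further synthetase genes only AIMP2 was called, with R below P (-1.31 ± 0.19, limma adjusted p = 0.0086). This AIMP2 call did not hold in every leave-one-out fit. None of 17 upstream genes and none of 17 mitochondrial synthetases was called.

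Under vehicle, most called members were lower in R cells. Comparing R_DMSO with P_DMSO, 7 of 15 stress genes were lower, 2 were higher and 6 were not called. Of 19 synthetases 9 were lower, 1 was higher and 9 were not called. Among all genes 27.6% were called, 11.5% lower and 16.2% higher. The median log2 fold change was -0.44 over the stress genes and -0.56 over the synthetases, beside 0.10 over all genes. The stress median was -0.75 and -0.22 without R_DMSO replicates 1 and 2, and -0.83 and -0.08 without P_DMSO replicates 1 and 2. This comparison and the drug comparison in P cells share the 2 P_DMSO libraries, so their values are not independent.

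TRIB3 had 52.7 and 46.6 FPKM in R_DMSO, against 239 and 272 in P_DMSO (log2 fold change -2.34 ± 0.14, limma adjusted p = 1.2e-04). CEBPG had 17.5 and 15.2 FPKM in R_DMSO, against 58.1 and 56.6 in P_DMSO (-1.75 ± 0.13, limma adjusted p = 2.6e-04), and DDIT3 had 35.03 and 36.4 FPKM in R_DMSO, against 175 and 239 in P_DMSO (-2.48 ± 0.21, limma adjusted p = 4.6e-04). In these 3 the R_DMSO libraries were all far below the P_DMSO libraries. SESN2 had 8.30 and 6.24 FPKM in R_DMSO, against 16.96 and 30.5 in P_DMSO (-1.53 ± 0.28, limma adjusted p = 0.0089), PPP1R15A had 32.03 and 22.4 FPKM in R_DMSO, against 47.5 and 129 in P_DMSO (-1.51 ± 0.43, limma adjusted p = 0.039) and ASNS had 111 and 113 FPKM in R_DMSO, against 279 and 172 in P_DMSO (-0.96 ± 0.22, limma adjusted p = 0.021). NUPR1, at 0 in each R_DMSO library, had 4.41 and 14.97 FPKM in P_DMSO, and it was called lower (limma adjusted p = 0.005).

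The stress genes that were higher in R_DMSO were the receptor VLDLR and the secreted STC2. VLDLR, which takes up lipoproteins, had 21.6 and 28.4 FPKM in R_DMSO, against 5.38 and 3.71 in P_DMSO (2.23 ± 0.26, limma adjusted p = 0.0015), and STC2 had 14.9 and 14.3 FPKM in R_DMSO, against 3.88 and 5.30 in P_DMSO (1.49 ± 0.22, limma adjusted p = 0.0039). ATF4 was not called (-0.33 ± 0.20, limma adjusted p = 0.25, 95% interval -0.80 to 0.13). ATF3, ATF5, DDIT4, CEBPB and JDP2 were not called, with log2 fold changes between -0.44 and 0.30.

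Among the synthetases, SARS1 had 102 and 93.2 FPKM in R_DMSO, against 303 and 328 in P_DMSO (-1.68 ± 0.13, limma adjusted p = 2.9e-04) and WARS1 had 79.998 and 70.5 FPKM in R_DMSO, against 228 and 274 in P_DMSO (-1.72 ± 0.15, limma adjusted p = 4.5e-04). RARS1, which charges tRNA with arginine, was the single synthetase to be higher, with 133 and 129 FPKM in R_DMSO, against 73.5 and 53.9 in P_DMSO (1.05 ± 0.16, limma adjusted p = 0.0045). AARS1 had 176 and 147 FPKM in R_DMSO, against 265 and 302 in P_DMSO (-0.81 ± 0.14, limma adjusted p = 0.007) and YARS1 had 158 and 146 FPKM in R_DMSO, against 269 and 230.2 in P_DMSO (-0.71 ± 0.13, limma adjusted p = 0.0081). All of these groups were apart. IARS1 had 124 and 132 FPKM in R_DMSO, against 214 and 183 in P_DMSO (-0.62 ± 0.13, limma adjusted p = 0.013), LARS1 had 84.9 and 86.7 FPKM in R_DMSO, against 165 and 128 in P_DMSO (-0.76 ± 0.15, limma adjusted p = 0.013) and MARS1 had 158 and 145 FPKM in R_DMSO, against 246 and 208 in P_DMSO (-0.58 ± 0.13, limma adjusted p = 0.018). CARS1 and NARS1 were also lower, by log2 fold changes of -0.63 ± 0.15 and -0.69 ± 0.17.

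Of the 19 calls 9 held whichever of the 4 libraries was left out, and 10 did not. Without R_DMSO replicate 2 the 10 lay at limma adjusted p between 0.054 for AARS1 and 0.18 for PPP1R15A, with ASNS at 0.094, SESN2 at 0.062, IARS1 at 0.059, LARS1 at 0.069, MARS1 at 0.11, NARS1 at 0.11, CARS1 at 0.13 and YARS1 at 0.062. Without R_DMSO replicate 1, 6 were lost: ASNS (0.1), PPP1R15A (0.093), IARS1 (0.084), LARS1 (0.076), MARS1 (0.065) and NARS1 (0.11). With P_DMSO replicate 2 left out, 7 stress genes and 6 synthetases had fold changes above 0, in place of 4 and 6. The all-gene median was then 0.18. The summed melanocytic markers were 27 and 24.9 FPKM in R_DMSO, against 157 and 201 FPKM in P_DMSO. The fibroblast sum was 29 and 25.7 FPKM in R_DMSO, against 2.61 and 3.86 FPKM in P_DMSO, and the mitochondrial share was 10.2 and 12.4% in R_DMSO, against 7.27 and 7.86% in P_DMSO. Their part in the result was not tested.

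Among the other pathway genes, 6 of 9 transporters were lower in R_DMSO and none higher, among them SLC7A11, with 1.23 and 1.16 FPKM in R_DMSO, against 19.1 and 16.6 in P_DMSO (-3.10 ± 0.18, limma adjusted p = 1.2e-04), SLC6A9, a glycine carrier (-3.08 ± 0.31, limma adjusted p = 8.4e-04), and SLC1A4 (-1.82 ± 0.15, limma adjusted p = 3.7e-04). Of 14 other targets 6 were lower and 2 higher, and TXNIP had 29.7 and 31.6 FPKM in R_DMSO, against 508 and 451 in P_DMSO (-3.92 ± 0.12, limma adjusted p = 1.5e-05). Of 12 synthesis genes 4 were lower and 2 higher, with ALDH1L2 at -2.11 ± 0.18, limma adjusted p = 5.1e-04 and GOT1 at 0.72 ± 0.12, limma adjusted p = 0.0061. These named calls held without any 1 library. Of the upstream genes 1 of 17 was lower and 2 were higher, and of the mitochondrial synthetases 3 of 17 were higher and none lower. Of 6 scaffold genes 3 were higher, among them AIMP2, a scaffold of the multi-synthetase complex (0.88 ± 0.13, limma adjusted p = 0.0043).

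With both lines in drug, most called members were higher in R cells. Comparing R_DT with P_DT, 7 of 15 stress genes were higher, 2 were lower and 6 were not called, and 10 of 19 synthetases were higher, none lower and 9 not called. Among all genes 37.6% were called, 18.6% higher and 19% lower. The median log2 fold change was 0.87 over the stress genes and 0.70 over the synthetases, beside -0.05 over all genes. Under quantile normalization 9 synthetases were higher and 1, HARS1, was lower (-0.50, limma adjusted p = 0.027). The P_DT libraries are shared with the drug comparison in P cells and the R_DT libraries with that in R cells.

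STC2 had 33.9 and 38.9 FPKM in R_DT, against 3.05 and 4.63 in P_DT (log2 fold change 2.97 ± 0.22, limma adjusted p = 1.7e-04). ASNS had 180.2 and 174 FPKM in R_DT, against 40.7 and 35.4 in P_DT (2.19 ± 0.22, limma adjusted p = 6.1e-04), and VLDLR had 24.4 and 24.8 FPKM in R_DT, against 7.03 and 4.42 in P_DT (1.96 ± 0.26, limma adjusted p = 0.0017). In these 3 the groups were far apart. TRIB3 had 52.4 and 53.6 FPKM in R_DT, against 25.2 and 28.8 in P_DT (0.95 ± 0.14, limma adjusted p = 0.0024), CEBPG had 35.4 and 35.3 FPKM in R_DT, against 18.6 and 19.3 in P_DT (0.87 ± 0.13, limma adjusted p = 0.0025) and DDIT3 had 74.96 and 79.9 FPKM in R_DT, against 30.7 and 42.9 in P_DT (1.07 ± 0.21, limma adjusted p = 0.0078). Both TRIB3 and DDIT3 were higher in R_DT here although each was lower in R_DMSO than in P_DMSO.

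ATF4 was called higher, with 386 and 390.5 FPKM in R_DT, against 218 and 255 in P_DT (0.72 ± 0.20, limma adjusted p = 0.027). NUPR1 was lower, with 0.453 and 0.0212 FPKM in R_DT, against 3.43 and 5.53 in P_DT (-2.14 ± 0.51, limma adjusted p = 0.016), and so was ATF5, which like ATF4 is controlled at translation, with 5.65 and 5.73 FPKM in R_DT, against 13.99 and 15.7 in P_DT (-1.24 ± 0.34, limma adjusted p = 0.028). The R_DT libraries of NUPR1 were near the lower limit. ATF3, DDIT4, SESN2, CEBPB, PPP1R15A and JDP2 were not called.

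Of the synthetases, IARS1 had 195 and 188 FPKM in R_DT, against 75.7 and 71.8 in P_DT (1.36 ± 0.13, limma adjusted p = 4.1e-04) and AARS1 had 197 and 191 FPKM in R_DT, against 86.2 and 93.8 in P_DT (1.10 ± 0.14, limma adjusted p = 0.0014). SARS1 had 182 and 179 FPKM in R_DT, against 84.3 and 96.4 in P_DT (1.00 ± 0.13, limma adjusted p = 0.0014), and TARS1, the threonine enzyme, had 205 and 206 FPKM in R_DT, against 114 and 121 in P_DT (0.80 ± 0.11, limma adjusted p = 0.0018). In all 4 the R_DT libraries were above the P_DT libraries. YARS1 had 195 and 200.1 FPKM in R_DT, against 111 and 104 in P_DT (0.87 ± 0.13, limma adjusted p = 0.0025), and KARS1 had 167 and 154 FPKM in R_DT, against 89.7 and 95.6 in P_DT (0.78 ± 0.12, limma adjusted p = 0.0035). GARS1 had 177 and 189 FPKM in R_DT, against 72.1 and 79.9 in P_DT (1.26 ± 0.25, limma adjusted p = 0.0083) and CARS1 had 71.8 and 81.5 FPKM in R_DT, against 43.6 and 49.9 in P_DT (0.70 ± 0.15, limma adjusted p = 0.011), while EPRS1 and FARSB were higher by 0.47 ± 0.14 and 0.78 ± 0.19. WARS1, which was lower in R cells under vehicle, had 112 and 114 FPKM in R_DT, against 93.2 and 106 in P_DT and was not called (0.18 ± 0.15, limma adjusted p = 0.36).

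Of these 19 calls 11 held whichever library was left out. ATF4 was lost without any 1 of the 4 libraries, at limma adjusted p of 0.07 to 0.15, and so were ATF5 (0.094 to 0.12), EPRS1 (0.086 to 0.17) and FARSB (0.07 to 0.1). DDIT3 (0.051 and 0.053), CARS1 (0.08 and 0.085) and GARS1 (0.056 and 0.053) were lost without P_DT replicate 1 or R_DT replicate 2. NUPR1 was lost without P_DT replicate 2 (0.095) or R_DT replicate 2 (0.09). Members called numbered 11 without R_DT replicate 2, 12 without P_DT replicate 1 and 29 when only these 4 libraries were fitted. The summed melanocytic markers were 35.9 and 58.3 FPKM in R_DT, against 430 and 452 FPKM in P_DT, and the fibroblast sum was 56.7 and 58.9 FPKM in R_DT, against 11.9 and 14.7 FPKM in P_DT. Endothelial markers summed to 7.13 and 7.82 FPKM in R_DT, against 0.411 and 0.246 FPKM in P_DT, and their part in the result was not tested.

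GDF15 had the widest gap of the pathway genes in drug, with 1072 and 1122 FPKM in R_DT, against 0.610 and 1.14 in P_DT (9.21 ± 0.37, limma adjusted p = 2.1e-05). Of 14 other targets 8 were higher and 1 lower in R_DT, of 12 synthesis genes 8 were higher and none lower, and of 9 transporters 4 were higher and 3 lower. MTHFD2 had a log2 fold change of 1.98 ± 0.15, limma adjusted p = 2.0e-04, CTH, the enzyme that makes cysteine from cystathionine, of 2.08 ± 0.27, limma adjusted p = 0.0015, and SLC38A2 of 1.26 ± 0.18, limma adjusted p = 0.0025. Upstream of ATF4, 5 of 17 genes were higher and 2 lower, among them EIF2S2 (0.91 ± 0.14, limma adjusted p = 0.0027) and OMA1, the mitochondrial protease that relays stress to ATF4 (-1.16 ± 0.16, limma adjusted p = 0.0022). Each of these named calls held without any 1 library. Of 17 mitochondrial synthetases 3 were higher and 1 lower, and of 6 scaffold and further synthetase genes 3 were higher and AIMP2 was lower (-0.43 ± 0.13, limma adjusted p = 0.043), a call lost without any 1 of the 4 libraries (0.085 to 0.23).

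**Figure D3:**
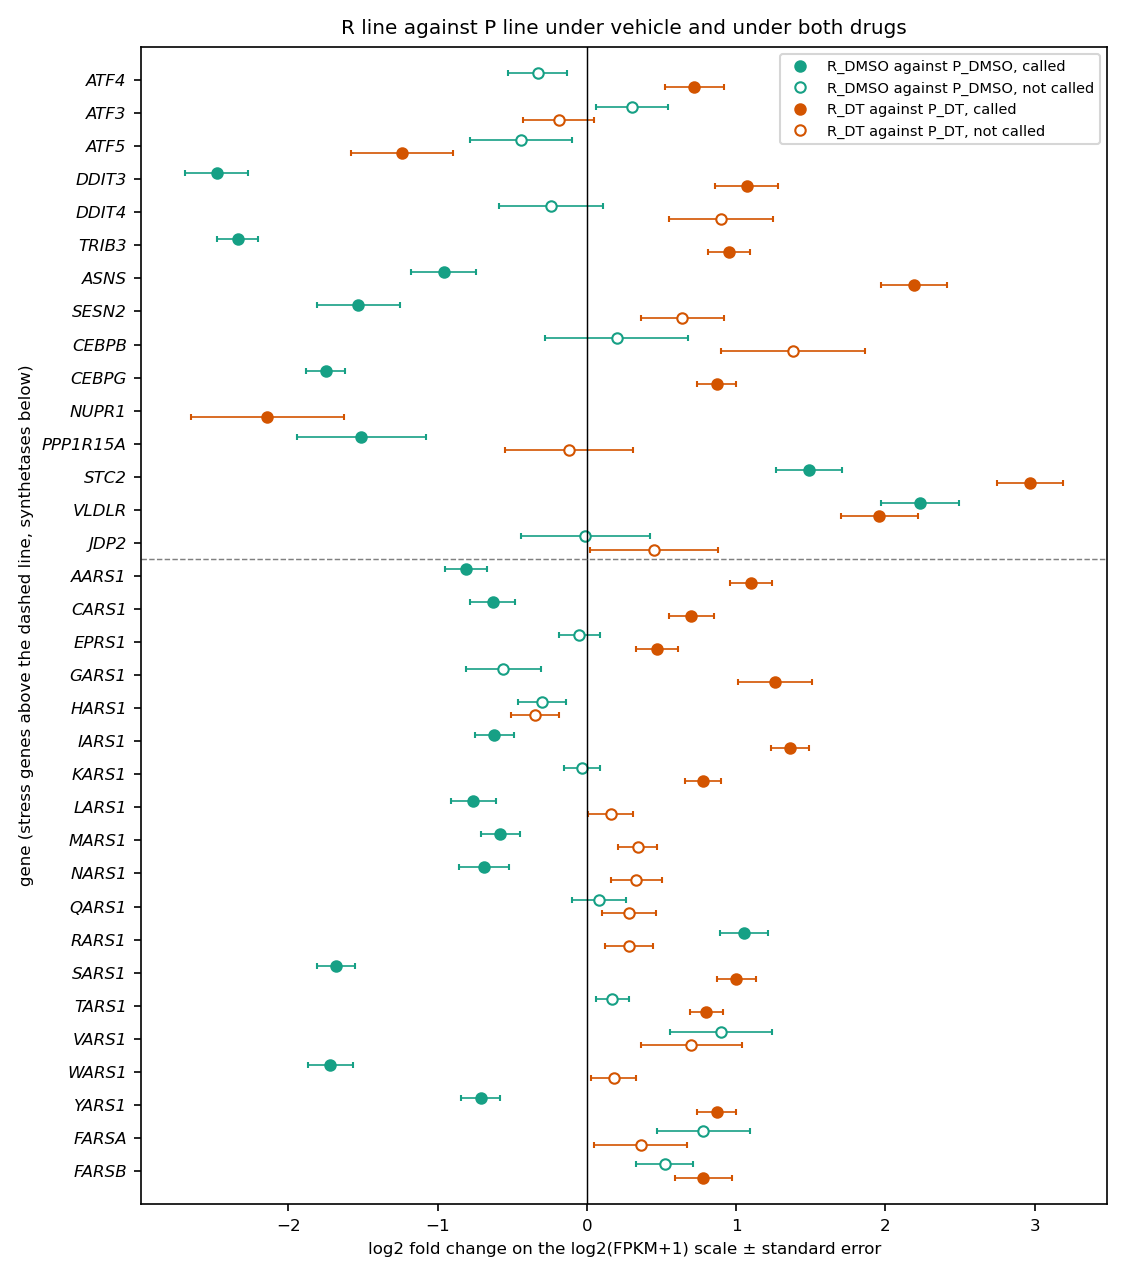
Log2 fold change of the 34 members between the lines, R_DMSO against P_DMSO in green and R_DT against P_DT in orange, with standard errors. Filled points are called at a limma adjusted p below 0.05, and NUPR1, listed at 0 in R_DMSO, has no point for vehicle. Of the synthetases 9 lie at called negative values under vehicle, and 10 at called positive values in drug.

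The LSD1 hairpin in P cells gave 4 called members, all lower: TRIB3, ASNS, JDP2 and YARS1. Of 15 stress genes 3 were lower, none higher and 12 not called, and of 19 synthetases 1 was lower and 18 were not called. Among all 14729 genes tested 3.42% were called, 1.22% lower and 2.2% higher. The median log2 fold change was -0.35 over the stress genes and -0.57 over the synthetases, beside -0.04 over all genes. The stress median was -0.19 without P_shLSD1 replicate 1 and -0.13 without P_shCtrl replicate 1. The fitted value was below 0 for all 19 synthetases, or for 18 of 19 under quantile normalization.

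JDP2, a repressor of AP-1, had 2.67 and 2.03 FPKM in P_shLSD1, against 11.6 and 10.5 in P_shCtrl (log2 fold change -1.85 ± 0.22, limma adjusted p = 0.026). ASNS had 32.5 and 37.5 FPKM in P_shLSD1, against 113 and 91.4 in P_shCtrl (-1.52 ± 0.18, limma adjusted p = 0.026), TRIB3 had 35.9 and 41.6 FPKM in P_shLSD1, against 98.96 and 90.1 in P_shCtrl (-1.27 ± 0.16, limma adjusted p = 0.028) and YARS1 had 54.8 and 60.2 FPKM in P_shLSD1, against 109 and 108 in P_shCtrl (-0.90 ± 0.15, limma adjusted p = 0.045). In all 4 the groups were apart. ATF4 had 256 and 316 FPKM in P_shLSD1, against 398 and 329 in P_shCtrl and was not called (-0.35 ± 0.22, limma adjusted p = 0.4, 95% interval -0.90 to 0.21). DDIT3 had 11.04 and 17.98 FPKM in P_shLSD1, against 27.9 and 15.6 in P_shCtrl and was not called (-0.54 ± 0.35, limma adjusted p = 0.4), its groups overlapping. The other members ranged from -1.24 for NUPR1 to 0.85 for ATF3, with limma adjusted p of 0.12 and 0.073.

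JDP2 and ASNS held without any 1 library. TRIB3 was lost without P_shLSD1 replicate 1 (limma adjusted p = 0.061), and YARS1 without P_shLSD1 replicate 1 (0.19), P_shLSD1 replicate 2 (0.11) or P_shCtrl replicate 1 (0.059). Members called numbered 2 without P_shLSD1 replicate 1. With no filter on low values the count was 0, and under quantile normalization it was 7, with 6 lower and DDIT4 higher (0.70, limma adjusted p = 0.028). Mitochondrially encoded transcripts made up 13.3 and 11.4% of summed FPKM in P_shLSD1, against 8.24 and 7.65% in P_shCtrl, and SOX10 had 185 and 199.8 FPKM in P_shLSD1, against 99.3 and 89.1 in P_shCtrl. The summed melanocytic markers were 205 and 218 FPKM in P_shLSD1, against 114 and 106 FPKM in P_shCtrl, and the 6 fibroblast markers 45.6 and 52.9 FPKM in P_shLSD1, against 8.47 and 6.73 FPKM in P_shCtrl. The part of any of these in the result was not tested.

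Of the other lists, 3 of 12 synthesis genes were lower and none higher: PYCR1, which makes proline, had 19.5 and 20.2 FPKM in P_shLSD1, against 72.8 and 55.8 in P_shCtrl (-1.63 ± 0.18, limma adjusted p = 0.024), PSAT1 of serine synthesis was at -1.21 ± 0.17, limma adjusted p = 0.034 and MTHFD2 at -1.17 ± 0.16, limma adjusted p = 0.034. Of 14 other targets, CHAC1, which degrades glutathione, was lower (-2.25 ± 0.25, limma adjusted p = 0.026), as was GDF15 (-1.51 ± 0.26, limma adjusted p = 0.048), and TXNIP was higher, with 27.4 and 28.9 FPKM in P_shLSD1, against 7.03 and 6.80 in P_shCtrl (1.88 ± 0.16, limma adjusted p = 0.017). Without P_shLSD1 replicate 1, PSAT1 and MTHFD2 were at limma adjusted p = 0.12 and GDF15 at 0.065, while PYCR1, CHAC1 and TXNIP held without any 1 library. No transporter, upstream gene, scaffold or mitochondrial synthetase was called.

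In R cells with the LSD1 hairpin, ATF4 mRNA itself and most of the members were lower. Of 15 stress genes 9 were lower, 3 were higher, 2 were not called and NUPR1, listed at 0, was not tested. Of 19 synthetases 13 were lower, none higher and 6 not called. Among all 14293 genes tested 21.8% were called, 12.4% lower and 9.42% higher. The median log2 fold change was -0.75 over the stress genes tested and -0.64 over the synthetases, beside -0.05 over all genes. The fitted value was below 0 for all 19 synthetases, also under quantile normalization.

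ATF4 had 256 and 246 FPKM in R_shLSD1, against 441 and 414 in R_shCtrl (log2 fold change -0.76 ± 0.06, limma adjusted p = 0.0024). DDIT4, which encodes REDD1, an inhibitor of mTORC1, had 49.8 and 39.1 FPKM in R_shLSD1, against 170.3 and 159 in R_shCtrl (-1.88 ± 0.12, limma adjusted p = 0.002). DDIT3 had 11.3 and 9.94 FPKM in R_shLSD1, against 58.2 and 45.3 in R_shCtrl (-2.17 ± 0.15, limma adjusted p = 0.0023). TRIB3 had 46.1 and 39.7 FPKM in R_shLSD1, against 112 and 98.1 in R_shCtrl (-1.27 ± 0.11, limma adjusted p = 0.0034). In all 4 the groups were apart, and DDIT3 and DDIT4 had larger fold changes than ATF4. ASNS had 70.8 and 78.5 FPKM in R_shLSD1, against 154 and 138 in R_shCtrl (-0.96 ± 0.09, limma adjusted p = 0.0037) and SESN2 had 17.2 and 16.9 FPKM in R_shLSD1, against 32.1 and 30.2 in R_shCtrl (-0.83 ± 0.10, limma adjusted p = 0.0068).

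The C/EBP partners were lower as well. CEBPB had 93.1 and 88.6 FPKM in R_shLSD1, against 127 and 121 in R_shCtrl (-0.45 ± 0.07, limma adjusted p = 0.011) and CEBPG had 12.6 and 13.8 FPKM in R_shLSD1, against 21.7 and 20.8 in R_shCtrl (-0.65 ± 0.12, limma adjusted p = 0.019). JDP2 had 5.83 and 7.25 FPKM in R_shLSD1, against 12.2 and 11.6 in R_shCtrl (-0.78 ± 0.16, limma adjusted p = 0.027). The 3 higher members were PPP1R15A, with 55.04 and 55.7 FPKM in R_shLSD1, against 40.5 and 41.4 in R_shCtrl (0.42 ± 0.08, limma adjusted p = 0.018), VLDLR, with 33.4 and 34.6 FPKM in R_shLSD1, against 22.8 and 26.2 in R_shCtrl (0.46 ± 0.11, limma adjusted p = 0.038), and ATF5, with 22.8 and 23.7 FPKM in R_shLSD1, against 17.1 and 17.05 in R_shCtrl (0.42 ± 0.10, limma adjusted p = 0.042). Their groups did not overlap, though the changes were small. ATF3 (-0.32 ± 0.11, limma adjusted p = 0.11) and STC2 (-0.73 ± 0.20, limma adjusted p = 0.055) were not called.

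Among the synthetases AARS1 had 99.5 and 97.8 FPKM in R_shLSD1, against 185 and 166 in R_shCtrl (log2 fold change -0.82 ± 0.07, limma adjusted p = 0.0034), NARS1, the asparagine enzyme, had 125 and 133 FPKM in R_shLSD1, against 209 and 204 in R_shCtrl (-0.68 ± 0.06, limma adjusted p = 0.0034), and EPRS1, which charges tRNA with glutamate and with proline, had 99.3 and 99.3 FPKM in R_shLSD1, against 154 and 161 in R_shCtrl (-0.66 ± 0.06, limma adjusted p = 0.0035). TARS1 had 163 and 161 FPKM in R_shLSD1, against 236 and 238 in R_shCtrl (-0.55 ± 0.05, limma adjusted p = 0.0037), SARS1 had 81.7 and 69.8 FPKM in R_shLSD1, against 158 and 145 in R_shCtrl (-0.99 ± 0.10, limma adjusted p = 0.0042) and WARS1 had 60.7 and 66.1 FPKM in R_shLSD1, against 105 and 108 in R_shCtrl (-0.74 ± 0.07, limma adjusted p = 0.0043). Of the 13 genes that fell, SARS1 had the largest fold change. CARS1 had 46.2 and 44.1 FPKM in R_shLSD1, against 79.7 and 75.2 in R_shCtrl (-0.77 ± 0.08, limma adjusted p = 0.0044) and RARS1 had 84.8 and 91.1 FPKM in R_shLSD1, against 138 and 137 in R_shCtrl (-0.64 ± 0.06, limma adjusted p = 0.0045), while the other 5 that fell, GARS1, IARS1, MARS1, QARS1 and YARS1, lay between -0.86 for YARS1 and -0.38 for MARS1. HARS1, KARS1, LARS1, VARS1, FARSA and FARSB were not called, between -0.28 and -0.12.

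Of the 25 calls 17 held whichever library was left out, ATF4, DDIT3, DDIT4, TRIB3, ASNS and SESN2 among them. ATF5 (limma adjusted p 0.12 to 0.16), CEBPG (0.053 to 0.091), PPP1R15A (0.064 to 0.078) and VLDLR (0.06 to 0.13) were lost without any 1 of the 4 libraries. JDP2 (0.087 to 0.12) and QARS1 (0.058 to 0.16) were lost without either R_shCtrl library or R_shLSD1 replicate 1. CEBPB was lost without R_shCtrl replicate 1 (0.062) or R_shLSD1 replicate 2 (0.054), and MARS1 without R_shCtrl replicate 1 (0.058) or R_shLSD1 replicate 1 (0.053). Mitochondrially encoded transcripts were 15.5 and 16.8% of summed FPKM in R_shLSD1, against 13 and 13.9% in R_shCtrl. The melanocytic markers summed to 41.1 and 37.9 FPKM in R_shLSD1, against 28.1 and 24.1 FPKM in R_shCtrl, and their part in the result was not tested.

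Of 14 other ATF4 and CHOP targets tested 8 were lower in R_shLSD1 and none higher. CHAC1 had 2.34 and 2.62 FPKM in R_shLSD1, against 30.2 and 27.02 in R_shCtrl (-3.09 ± 0.15, limma adjusted p = 0.0012), GDF15 had 33.3 and 36.6 FPKM in R_shLSD1, against 206 and 189 in R_shCtrl (-2.47 ± 0.08, limma adjusted p = 9.4e-04) and INHBE, an activin subunit, had 6.94 and 7.34 FPKM in R_shLSD1, against 36.1 and 41.2 in R_shCtrl (-2.28 ± 0.12, limma adjusted p = 0.0014). These were the widest gaps of the list. Of 12 synthesis genes 7 were lower and 1 higher, among them PSPH, the last enzyme of serine synthesis (-1.53 ± 0.13, limma adjusted p = 0.0034), PYCR1 (-1.27 ± 0.11, limma adjusted p = 0.0034) and MTHFD2 (-1.20 ± 0.06, limma adjusted p = 0.0012). Of 9 transporters 5 were lower and 1 higher, with SLC1A5, the glutamine carrier, at -0.90 ± 0.06, limma adjusted p = 0.0023.

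Upstream of ATF4, 3 of 17 genes were lower and none higher: EIF2S2 (-0.91 ± 0.07, limma adjusted p = 0.0027), EIF2S1, the alpha subunit of eIF2 (-0.82 ± 0.13, limma adjusted p = 0.014), and EIF2B2 of its exchange factor (-0.63 ± 0.11, limma adjusted p = 0.017). The last 2 were lost without 1 library, EIF2S1 without R_shCtrl replicate 1 (limma adjusted p = 0.068) and EIF2B2 without R_shLSD1 replicate 2 (0.062). The other genes named in these lists for R_shLSD1 held without any 1 library. Of 6 scaffold genes only PPA1 was lower (-0.65 ± 0.07, limma adjusted p = 0.0056).

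**Figure D4:**
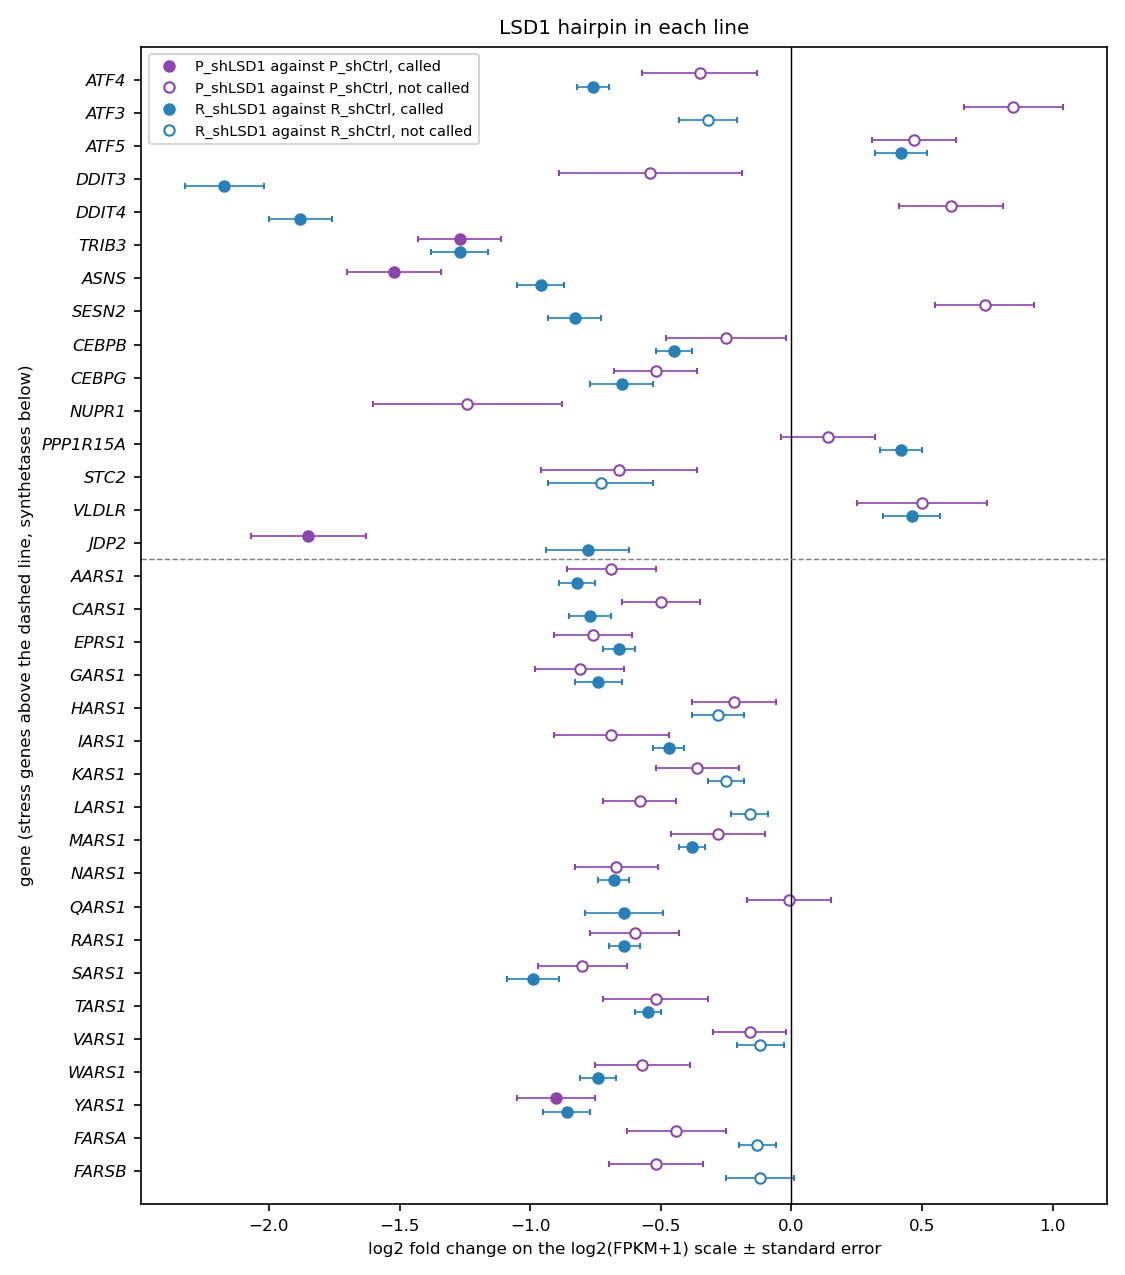
Log2 fold change of the 34 members under the LSD1 hairpin, P_shLSD1 against P_shCtrl in purple and R_shLSD1 against R_shCtrl in blue, with standard errors. Filled points are called at a limma adjusted p below 0.05. All synthetases lie below 0 in both comparisons, or 18 of 19 in P cells under quantile normalization, with 1 called in P cells and 13 in R cells.

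TRIB3, ASNS, JDP2 and YARS1 were called lower under the LSD1 hairpin in both lines. Of all genes tested, 1.22% were called lower in P cells and 12.4% in R cells. The share called lower in both was not computed. The calls of TRIB3 and YARS1 in P cells and of JDP2 in R cells did not hold in every leave-one-out fit, as given above. The fold changes side by side were -1.27 ± 0.16 in P cells and -1.27 ± 0.11 in R cells for TRIB3, -1.52 ± 0.18 and -0.96 ± 0.09 for ASNS, -1.85 ± 0.22 and -0.78 ± 0.16 for JDP2, and -0.90 ± 0.15 and -0.86 ± 0.09 for YARS1. Whether the hairpin acted differently in the lines was not tested. The standard errors were larger in P cells, with 0.15 for YARS1 there and 0.09 in R cells.

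The FOSL1 hairpin has no control in its own table, so only levels can be given. In R_shFosL1, DDIT3 had 56.4 and 46.5 FPKM, TRIB3 79.3 and 79.3 FPKM, ASNS 164 and 168 FPKM and ATF3 47.7 and 48.7 FPKM. DDIT4 had 100.5 and 97.4 FPKM, SESN2 17.1 and 15.6 FPKM and CEBPG 25.1 and 24.5 FPKM. The replicates were close to each other in most of these genes. The synthetases had a median group mean of 137 FPKM, from 12.5 FPKM for FARSB to 289 FPKM for TARS1, and YARS1 had 204 and 195 FPKM.

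**Figure D5:**
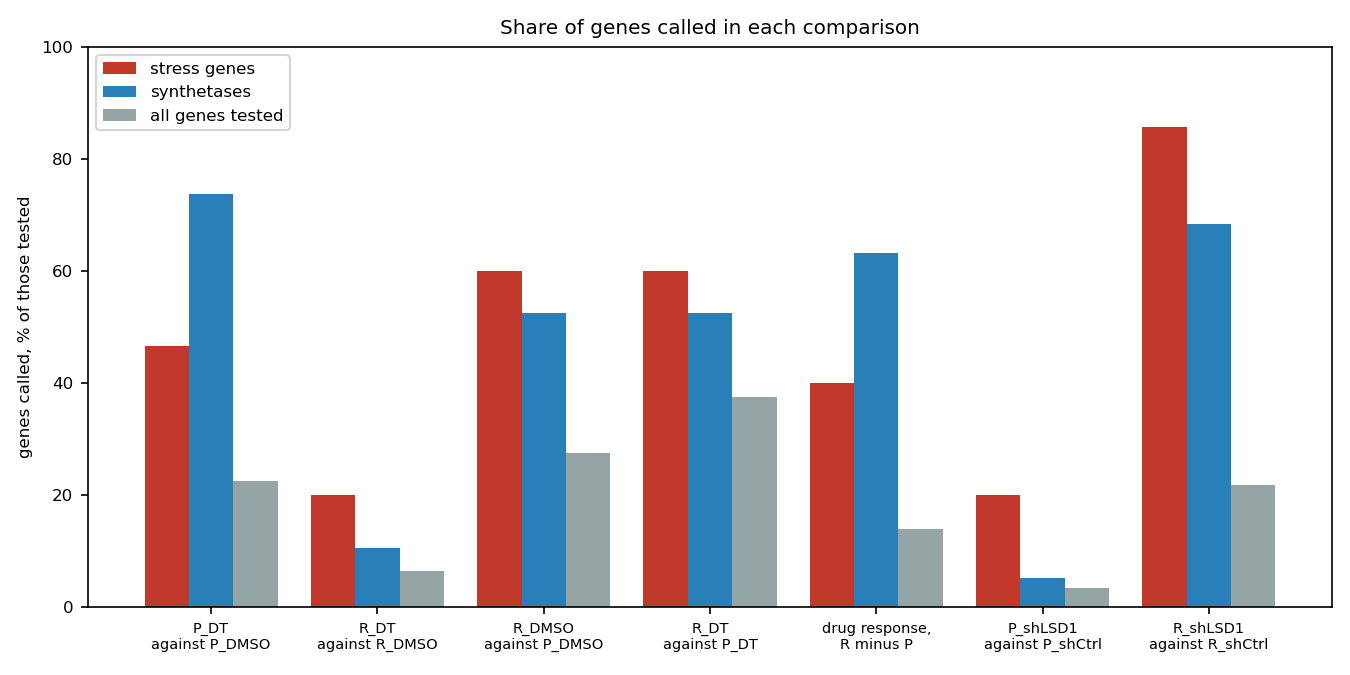
Share of stress genes (red), synthetases (blue) and all genes tested (grey) that were called in each of the 7 comparisons, in percent. The share of synthetases was highest in P_DT against P_DMSO, where 14 of 19 were called, and lowest in P_shLSD1 against P_shCtrl, where 1 of 19 was called.

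Across the 7 comparisons 31 of 34 members were called at least 1 time, against 58.5% of the 17734 genes tested in any of them, and HARS1, VARS1 and FARSA were called in none. DDIT3, TRIB3, ASNS, CEBPG, IARS1, SARS1 and YARS1 were each called in 6 comparisons, and the share of all genes called in as many was not computed. Some members share exon sequence with a neighbour on the other strand, and the sources used here do not say whether the FPKM used the strand. DDIT3 shares 355 of its 1307 exonic bases with MARS1, ATF5 shares 626 of 2954 with NUP62, and HARS1 shares 437 of 7853 with HARS2, so reads in those stretches may have been assigned to either gene. The deposited tables place DDIT3 and MARS1 in 1 shared locus on chromosome 12. The DDIT3 and MARS1 fold changes were -2.46 ± 0.21 and -0.76 ± 0.13 in P_DT, and -2.17 ± 0.15 and -0.38 ± 0.05 in R_shLSD1.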

How the data were processed

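RNA was sequenced from 18 A375 libraries, and total RNA was depleted of ribosomal RNA and made into libraries with a directional kit, per the labels' protocols. The protocols name more than 1 sequencer without saying which library ran on which. Per the submitters' processing notes, tools included CASAVA 1.4, HISAT2 2.1.0 and Cufflinks 2.2.1, with the build hg38. The deposited values are FPKM per gene, in 4 tables normalized separately by the authors. Their confidence bounds were not used, and 4940 blank rows of the R hairpin table and 5 genes with a failed status were left out, none of them a member. The tables hold no counts. In 10 of 18 libraries low values fell in steps that show whole fragments, and the depth of the others is unknown.

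From there, log2(FPKM + 1) was fitted with limma 3.58.1 in R 4.3.3 (trended, robust variance) on genes with at least 1 FPKM in 2 libraries. The 8 drug libraries shared a fit, each LSD1 hairpin table had its own, and R_shFosL1, without controls in its table, was not tested. Adding 1 makes fold changes of low genes too small. P-values were adjusted by Benjamini-Hochberg over all genes of a fit. The pipeline was tested on simulated data. Per-library values are given for ATF4 and, per comparison, for up to 12 called stress genes and 8 called synthetases by smallest adjusted p. List genes are up to 4 called ones per list, not all of them printed, and some list results are not reported here. The printed promoters are the 6 element-holding members called in most comparisons. The members and lists were chosen with earlier results of these data known. Older symbols, such as AARS for AARS1, were accepted. Same-numbered libraries did not deviate together, so no pairing was used.

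Alternatives were a pseudocount of 0.1, no filter, quantile normalization, a replicate block, each library left out, and a fit of only the 4 libraries compared. Melanocytic, fibroblast, keratinocyte, leukocyte and endothelial marker lists were summed. Outside the melanocytic list the sums were 0.0933 to 7.82 FPKM for endothelial, 0.194 to 3.07 FPKM for leukocyte, 2.61 to 58.9 FPKM for fibroblast and 21.2 to 139 FPKM for keratinocyte markers.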

Additional observations from a re-analysis of the deposited data

Results flagged for a closer look

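The response to dabrafenib plus trametinib differed between the lines in 18 members by the test of the difference itself, R minus P, in limma. Among the stress genes the differences were 3.56 for DDIT3, 3.29 for TRIB3, 3.15 for ASNS, 2.62 for CEBPG, 2.18 for SESN2 and 1.47 for STC2, all on the log2 scale. Among the synthetases they were 2.68 for SARS1, 1.99 for IARS1, 1.91 for AARS1, 1.90 for WARS1, 1.82 for GARS1, 1.58 for YARS1, 1.33 for CARS1 and 1.02 for NARS1. LARS1 and MARS1 differed by 0.92 each, KARS1 by 0.81 and TARS1 by 0.63. These are the members given above, where the libraries that end a call are named.

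For 3 members every LSD1 hairpin library of 1 line lay on 1 side of its controls and every library of the other line on the opposite side. The difference between the lines was not tested in any of them. How many of all genes had such opposite groups was not computed, so the count is not shown to be particular to the members. DDIT4 had 209 and 256 FPKM in P_shLSD1, against 163 and 139 in P_shCtrl (log2 fold change 0.61), and 49.8 and 39.1 FPKM in R_shLSD1, against 170.3 and 159 in R_shCtrl (-1.88). SESN2 had 13.5 and 13.7 FPKM in P_shLSD1, against 6.99 and 8.58 in P_shCtrl (0.74), and 17.2 and 16.9 FPKM in R_shLSD1, against 32.1 and 30.2 in R_shCtrl (-0.83). ATF3 had 10.2 and 11.8 FPKM in P_shLSD1, against 5.57 and 5.76 in P_shCtrl (0.85), and 19.01 and 20.1 FPKM in R_shLSD1, against 23.2 and 26.2 in R_shCtrl (-0.32). In P cells none of the 3 was called, and in R cells DDIT4 and SESN2 were.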

How the results depend on the processing

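No called log2 fold change of a member or of a named list gene changed sign under any alternative run. Fitting only the 4 libraries compared gave 10 called members in place of 21 for P_DT against P_DMSO, 14 in place of 5 for R_DT against R_DMSO, 10 in place of 19 for R_DMSO against P_DMSO and 29 in place of 19 for R_DT against P_DT. Over all genes the calls moved the same way, to 1447, 2506, 2529 and 8429 in that order, from 3861, 1114, 4751 and 6462. Those 4-library fits have fewer libraries to estimate the spread, and P_DMSO had the widest. With no filter on low values, 3 members and 777 of all 29573 genes were called for R_DT against R_DMSO. For P_shLSD1 against P_shCtrl it was 0 of 4 members, and no gene at all was called. Quantile normalization gave 7 members for P_shLSD1 against P_shCtrl, with 879 of all 14729 genes called in place of 504. A pseudocount of 0.1 kept every count of members within 1.5 times its own. The calls over all genes also rose or fell with the library left out, in the fits given next. Leaving out 1 library gave 9 to 27 called members for P_DT against P_DMSO, 0 for R_DT against R_DMSO, 9 to 25 for R_DMSO against P_DMSO, 11 to 15 for R_DT against P_DT, 9 to 25 for the difference in drug response, 2 to 4 for P_shLSD1 and 17 to 20 for R_shLSD1 against their controls.

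The replicate numbers did not pair the libraries: the correlations of same-numbered deviations were -0.21 to 0.15 in the drug table, -0.32 in the P hairpin table and 0.03 in the R hairpin table. With the replicate block 19, 4, 18, 19, 14, 4 and 25 members were called, in the order of comparisons just given, against 21, 5, 19, 19, 18, 4 and 25 without it. The 4 for P_shLSD1 were then all stress genes, and YARS1 was not called (limma adjusted p = 0.089). Over all genes the block gave 3121, 625, 4076, 5865, 1603, 945 and 3209 calls in the same order. Without it they were 3861, 1114, 4751, 6462, 2385, 504 and 3118. With the P hairpin numbers crossed, an alternative chosen after seeing the data, 24 members were called in place of 4. Of all 14729 genes, 3446 were then called in place of 504. With 2 libraries a group, and a depth that is unknown in 8 of the 18, a member that was not called is not shown to be unchanged. Levels in different tables were not compared by any test.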
